A study of Mus musculus with 39 samples.

Results

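The glucocorticoid receptor and 7 genes known to respond to it were followed in mouse dura mater, the tough outermost meningeal layer, and in masseter, a muscle that closes the jaw. The 8 genes were taken by symbol from 23412 measured genes and were all found: the receptor gene Nr3c1, its co-chaperone gene Fkbp5, and Klf9, Klf15, Zbtb16, Tsc22d3, Sgk1 and Errfi1. All mice were wild-type. All dura was taken at day 2. It came from 12 samples given 10 U of collagenase type I, which breaks down collagen, in the temporal muscle on the side of the skull, from 4 given saline in that muscle (temporal saline), and from 6 given saline with no site named and the word naive in their titles (unsited saline). Masseter came from mice given a course of 4 collagenase doses of 0.2 to 0.5 U, either in the masseter (3 samples at day 38 and 3 at day 52) or in the temporal muscle (3 samples at day 28). Saline controls, injected in the masseter, numbered 4 at day 28 and 4 at day 38. No saline masseter was taken at day 52, and no masseter came from mice given saline in the temporal muscle. The labels give neither strain, age nor time of day of collection, and whether each library is a separate animal is not stated, so each p-value measures only the spread between these samples.

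Glucocorticoids, in mice mainly corticosterone, enter cells and bind the receptor encoded by Nr3c1, which is held in the cytoplasm by heat shock protein complexes. The bound receptor moves to the nucleus and binds DNA at glucocorticoid response elements, which pair AGAACA sites in inverted order. Corticosterone follows a daily rhythm and rises with stress and injury. In skeletal muscle it favours protein breakdown, and in connective and immune tissue it restrains inflammation.

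The libraries held 12.1 to 32.3 M (mega) counts, and the 8 genes had between 17 and 14287 rounded counts in every library. Unless transcripts per M (TPM), which are per length, are named, a level is in counts per M counts (CPM) of the scaled library size. The 12 dura collagenase libraries were all paired-end and the 10 dura controls all single-end, so treatment and read layout cannot be told apart in dura. Malat1, a nuclear RNA chosen after its values were seen, lay between 2170 and 5730 CPM in the former and between 169 and 217 CPM in the latter. In masseter, saline day 28 was single-end and the other 13 libraries paired-end, and Malat1 was between 797 and 1070 CPM in the saline day 28 libraries and between 816 and 1790 CPM in the saline day 38 libraries. Dura collagenase libraries 1, 4, 6, 7 and 8 stood apart: 8 neuron markers summed to 6930 CPM in library 1 and to 6270 CPM in library 7 but to 194 to 1160 CPM in the other 10, and the sum of 9 skeletal muscle markers was 61300, 22900 and 7600 CPM in libraries 4, 8 and 7, against 103 to 456 CPM in the other 9. The sum of 6 pituitary markers reached 1310 CPM in library 6. Values without libraries 1, 4, 6, 7 and 8 are given beside the dura results of the 8 genes. For the gene lists only the counts of called genes are given without them. The sum of 7 dura and fibroblast markers was at least 3530 CPM in every dura library, and that of 9 muscle markers at least 102000 CPM in every masseter library. In whole tissue, fewer cells of a type and less RNA per cell cannot be told apart.

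Start regions were examined as RefSeq gives them (GRCm38.p6), from 250 bases before to 50 bases after each annotated start. There were 14 windows for 6 of the 8 genes; Zbtb16 and Nr3c1 were not used. The full element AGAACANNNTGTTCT was searched on both strands, and it reads alike on both. It lay in 1 of the 14 windows, at an internal start of Sgk1, and in 3 of 32851 windows of all genes used (0.00913%). The AGAACA site, read on either strand, lay in 4 of the 14 windows and in 6233 of all windows (19.0%). The E-box CACGTG, the site of the clock proteins CLOCK and BMAL1 and of other factors, lay in 3 of the 14 windows and in 2349 of all windows (7.15%). The Klf15 window held it 3 times, and 29 of all windows (0.0883%) held it at least 3 times. The windows shown are that of Sgk1 with the full element, that of Klf15 with the repeated E-box, and that of Klf9, the member with the smallest p in dura, which held neither motif. Capitals mark AGAACA sites on either strand and E-boxes, of which the first pair in the Sgk1 window overlaps, and the windows are chr10:21993640-21993939 (+ strand) for Sgk1, chr6:90462326-90462625 (+ strand) for Klf15 and chr19:23140976-23141275 (+ strand) for Klf9.
Sgk1: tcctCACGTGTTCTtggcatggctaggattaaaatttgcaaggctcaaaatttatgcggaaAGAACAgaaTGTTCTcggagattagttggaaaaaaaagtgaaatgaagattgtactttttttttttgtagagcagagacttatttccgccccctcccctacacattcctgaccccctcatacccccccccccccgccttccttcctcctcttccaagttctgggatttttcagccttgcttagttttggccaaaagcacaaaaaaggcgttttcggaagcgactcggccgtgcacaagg
Klf15: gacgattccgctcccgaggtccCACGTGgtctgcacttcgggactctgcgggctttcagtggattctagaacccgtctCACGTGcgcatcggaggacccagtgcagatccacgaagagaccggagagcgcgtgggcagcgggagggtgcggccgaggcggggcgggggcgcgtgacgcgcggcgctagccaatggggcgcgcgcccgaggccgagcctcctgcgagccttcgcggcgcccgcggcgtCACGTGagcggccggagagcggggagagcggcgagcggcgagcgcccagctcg
Klf9: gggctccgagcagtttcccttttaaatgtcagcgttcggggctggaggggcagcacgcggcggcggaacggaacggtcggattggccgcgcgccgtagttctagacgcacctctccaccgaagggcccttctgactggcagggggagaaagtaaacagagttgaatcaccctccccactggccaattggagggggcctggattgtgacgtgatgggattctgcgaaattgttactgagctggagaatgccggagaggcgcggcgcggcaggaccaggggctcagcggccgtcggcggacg
In the Sgk1 window the full element read AGAACAGAATGTTCT at bases 62 to 76. These are matches of letters, and binding was not measured.

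Differences below are log2 fold changes with standard errors, tested by edgeR's quasi-likelihood test over all genes of a tissue and adjusted by Benjamini-Hochberg. Genes with an adjusted p under 0.05 were called. After collagenase, 5 of the 8 genes were called higher in dura and 0 lower than in temporal saline dura, where 13.3% of 16363 tested genes were called higher and 11.1% lower. Against unsited saline 4 were called higher and 0 lower, beside 21.4% and 15.3% of all genes. Klf9, Fkbp5, Zbtb16 and Klf15 were called in both, and Tsc22d3 in the first alone. Both comparisons share the 12 collagenase libraries. The median log2 fold change of the 8 genes was 0.75 and 0.39, and that of all tested genes 0.06 in each. Without libraries 1, 4, 6, 7 and 8, 5 of the 8 were called against temporal saline, with Nr3c1 in place of Klf15, beside 15.7% of 16107 genes higher and 16.1% lower. Against unsited saline 4 were then called, beside 20% of genes higher and 18.8% lower. Cell type markers also differed from unsited saline: 9 of 9 muscle, 7 of 8 neuron and 3 of 5 tested pituitary markers were higher. Lower were 5 of 5 B cell and 3 of 4 macrophage markers, and 0 of 7 dura and 0 of 5 neutrophil markers were called. Without the 5 libraries, 9 muscle, 3 neuron and 2 pituitary markers were higher. Lower were then 5 B cell, 3 macrophage, 4 dura and 2 neutrophil markers. The part of these differences in the calls was not tested.

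The receptor gene Nr3c1 lies on chromosome 18 (39410545 to 39519421). It was at 95.4, 104, 123 and 79.0 CPM in temporal saline dura, and at 106 to 139 CPM (median 120 CPM) in unsited saline dura. After collagenase it was at 73.1 to 152 CPM (median 129 CPM). The 3 groups overlapped, and the lowest collagenase values, 73.1 and 73.2 CPM, were in libraries 1 and 7, which had the high neuron marker sums. The log2 fold change was 0.26 ± 0.17 against temporal saline (adjusted p = 0.239, approximate 95% interval -0.06 to 0.59) and -0.01 ± 0.14 against unsited saline (adjusted p = 0.953, interval -0.29 to 0.26). Without the 5 libraries that stood apart, the first became 0.33 and was called (adjusted p = 0.042), and the second 0.07 (adjusted p = 0.628).

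Genes that fold, assist or regulate the receptor, a list of 17, included 5 called higher and 0 lower against temporal saline, and 11 higher and 0 lower against unsited saline, where 13.3% and 21.4% of all genes were called higher. Between the control groups 0 of the 17 were higher and 1 lower. With the 5 libraries that stood apart left out, 6 were higher and 0 lower against temporal saline, 12 and 1 against unsited saline, and 2 and 4 between the controls. The shares of all genes were then 15.7%, 20% and 11.4% higher and 16.1%, 18.8% and 11.5% lower. Ncor1, a co-repressor of nuclear receptors, rose in both (log2 0.64 ± 0.10 and 0.84 ± 0.08; adjusted p = 7.89e-05 and 3.68e-07). It was at 140 to 191 CPM after collagenase and at 83.5 to 119 CPM over all 10 controls, without overlap. Hsp90ab1, a chaperone that keeps the receptor able to bind hormone, had log2 fold changes of 0.42 ± 0.12 and 0.57 ± 0.10 (adjusted p = 0.0117 and 0.000259). Ptges3, the p23 co-chaperone, rose by 0.57 ± 0.12 against temporal saline (adjusted p = 0.00108), and Stip1, which links the chaperones Hsp70 and Hsp90, by 0.67 ± 0.10 against unsited saline (adjusted p = 4.36e-05).

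Fkbp5 (chromosome 17, 28398753 to 28486149) encodes FKBP51, which binds the receptor complex, lowers its affinity for hormone and is itself induced by the receptor. It was at 73.3, 23.9, 34.4 and 68.4 CPM in temporal saline dura and at 39.2 to 62.8 CPM (median 47.8 CPM) in unsited saline dura. After collagenase it was at 46.1 to 166 CPM (median 92.9 CPM). Libraries 4 to 12 were above every control, from 79.9 CPM up, and the lowest 3 were libraries 1, 3 and 2, at 46.1, 55.2 and 58.3 CPM, within the range of the controls. The log2 fold change was 0.95 ± 0.31 (adjusted p = 0.0300) and 0.99 ± 0.27 (adjusted p = 0.00762) against the respective saline groups. The first call rested on the low saline libraries 2 and 3, and without library 2 it was log2 0.72 (adjusted p = 0.124) and without library 3 log2 0.81 (adjusted p = 0.115). Without the 5 collagenase libraries that stood apart the differences were 0.99 (adjusted p = 0.0257) and 1.05 (adjusted p = 0.00768).

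Klf9 (chromosome 19, 23141226 to 23168129), a zinc finger transcription factor that glucocorticoids induce, separated the dura groups fully. It was at 36.4, 25.8, 47.4 and 33.7 CPM in temporal saline dura and at 28.9 to 38.5 CPM (median 36.3 CPM) in unsited saline dura. All 12 collagenase libraries lay between 98.8 and 157 CPM (median 142 CPM). The lowest collagenase libraries, 10 and 11, were at 98.8 and 102 CPM, above the highest control at 47.4 CPM. The 3.84-fold and 3.94-fold differences ranked 27 and 28 of 16363 genes by p. Without the 5 libraries that stood apart, the log2 fold changes were 1.88 (adjusted p = 7.63e-07) and 1.92 (adjusted p = 5.09e-08). The control groups differed by log2 -0.03 ± 0.15 (adjusted p = 0.925, interval -0.33 to 0.26).

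Klf15 (chromosome 6, 90461043 to 90491803), a related transcription factor that controls amino acid and lipid use, differed less. It was at 22.5, 17, 19.1 and 18.2 CPM in temporal saline dura and at 13.3 to 20.8 CPM (median 16 CPM) in unsited saline dura. After collagenase it was at 17.8 to 40.4 CPM (median 28.8 CPM), with 9 of 12 libraries above every control. The log2 fold change was 0.56 ± 0.19 (adjusted p = 0.0338) and 0.79 ± 0.16 (adjusted p = 0.00114). The highest value, 40.4 CPM, was in library 9, which had the lowest muscle marker sum, 103 CPM. Libraries 7, 8 and 4, with the high muscle marker sums, were at 37.1, 35.7 and 31.0 CPM. The remaining collagenase libraries, with low muscle marker sums, were at 17.8 to 31.1 CPM. The part of muscle in the Klf15 values was not tested. Without the 5 libraries that stood apart the first difference was 0.40 and not called (adjusted p = 0.121), while the second was 0.65 and called (adjusted p = 0.00735). It was also not called against temporal saline without collagenase library 7 (log2 0.50, adjusted p = 0.0526) or without saline library 2, 3 or 4 (adjusted p = 0.109, 0.0827 and 0.0919).

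Zbtb16 (chromosome 9, 48651797 to 48836225) encodes PLZF, a repressor that is strongly induced by glucocorticoids and is made in innate-like T cells. It was at 4.14, 1.15, 2.66 and 5.80 CPM in temporal saline dura and at 0.696 to 2.52 CPM (median 1.93 CPM) in unsited saline dura. After collagenase it was at 2.42 to 45.3 CPM (median 21.9 CPM), and the values were uneven: libraries 1, 2 and 3 were at 5.85, 3.22 and 2.42 CPM, whereas libraries 4 to 12 were between 15.0 and 45.3 CPM. Libraries 1 to 3 were thus the lowest 3 for Fkbp5 and for Zbtb16. The log2 fold change was 2.63 ± 0.67 (adjusted p = 0.00718) and 3.69 ± 0.60 (adjusted p = 0.000132), the largest of the 8 genes in each comparison. Without the 5 libraries that stood apart it was 2.19 (adjusted p = 0.0123) and 3.27 (adjusted p = 0.000331). On log2(TPM + 0.5), which understates changes of low genes, limma gave 1.90 (adjusted p = 0.0157) and 2.54 (adjusted p = 0.000532). Among the collagenase libraries, those with high muscle marker sums, 4, 8 and 7, were at 23.0, 37.0 and 45.3 CPM. Libraries 6, 10 and 12, with muscle marker sums of 152, 111 and 456 CPM, were at 32.3, 29.2 and 25.6 CPM. Libraries 9, 5, 11, 1, 2 and 3, also with low muscle marker sums, were lower, at 20.9, 16.5, 15.0, 5.85, 3.22 and 2.42 CPM. The part of muscle in the Zbtb16 values was not tested.

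**Figure D1:**
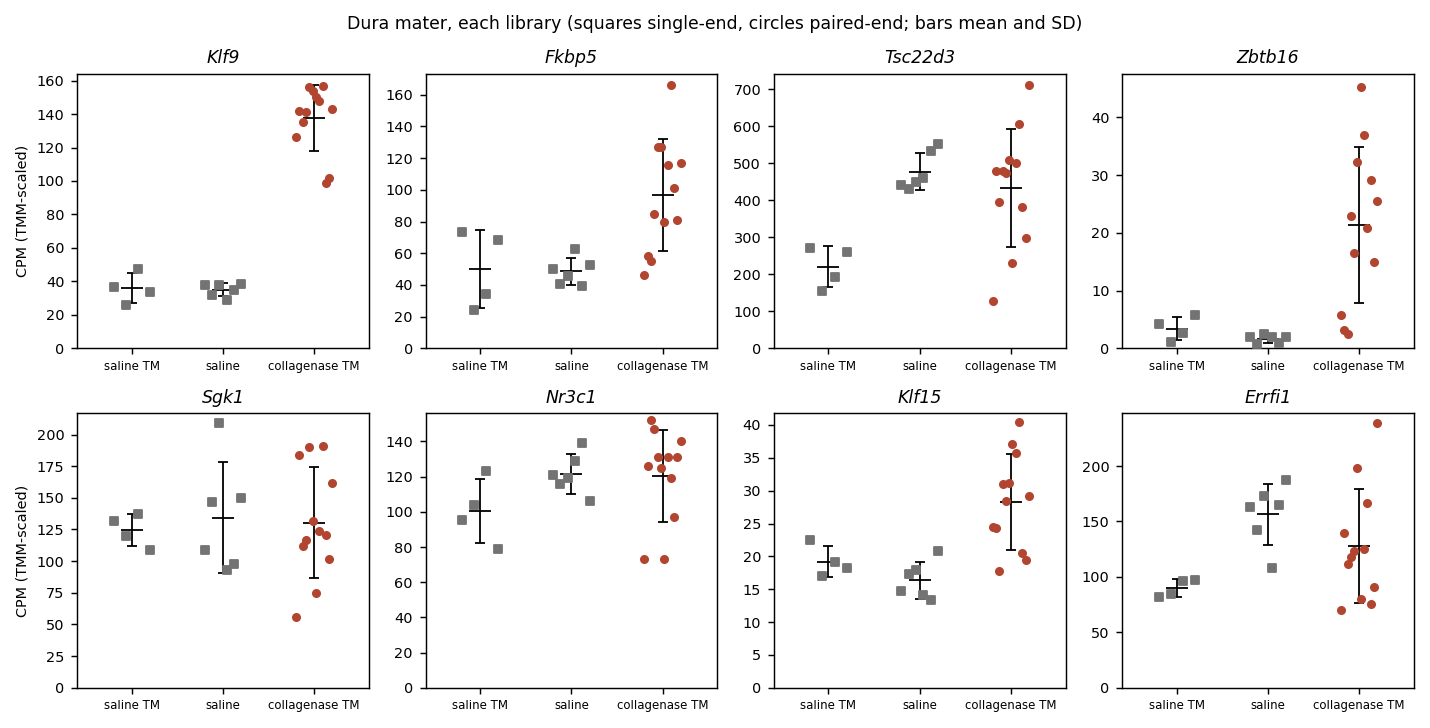
Levels of the 8 genes in each dura library, in CPM on a linear axis from 0, for saline in the temporal muscle (TM), unsited saline and collagenase in TM; points are libraries, and the lines give the mean and SD. Klf9 separated all 12 collagenase libraries (98.8 to 157 CPM) from the 10 controls (25.8 to 47.4 CPM), whereas Tsc22d3 and Errfi1 differed between the control groups.

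Tsc22d3 (X chromosome, 140539528 to 140600522) encodes GILZ, an anti-inflammatory leucine zipper protein that is a classical receptor target. It was at 272, 156, 194 and 261 CPM in temporal saline dura, and at 431 to 551 CPM (median 455 CPM) in unsited saline dura, so the 2 control groups did not overlap. After collagenase it was at 128 to 712 CPM (median 475 CPM), spanning both, with libraries 1 and 7 lowest at 128 and 231 CPM. The difference was log2 0.97 ± 0.29 against temporal saline (adjusted p = 0.0197) and -0.14 ± 0.24 against unsited saline (adjusted p = 0.659, interval -0.61 to 0.32). The first call was lost without saline library 2 (log2 0.84, adjusted p = 0.0859) or 3 (log2 0.91, adjusted p = 0.0683). Without the 5 collagenase libraries that stood apart the differences were 1.09 (adjusted p = 0.000813) and -0.01 (adjusted p = 0.984).

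Errfi1 (chromosome 4, 150853796 to 150868889), a feedback inhibitor of the epidermal growth factor receptor, was also lowest in temporal saline dura by median. It was at 81.8, 84.3, 96.6 and 96.9 CPM in temporal saline dura, at 108 to 187 CPM (median 164 CPM) in unsited saline dura, and at 70.3 to 239 CPM (median 120 CPM) after collagenase. The control groups again did not overlap, and the collagenase libraries spanned both. The log2 fold change of collagenase was 0.51 ± 0.26 (adjusted p = 0.144, interval 0.01 to 1.02) and -0.29 ± 0.21 (adjusted p = 0.292, interval -0.71 to 0.13). The first interval leaves out 0 although edgeR's unadjusted p was 0.0598, since these approximate intervals are narrower than the test implies. Without the 5 libraries the log2 fold changes were 0.57 (adjusted p = 0.0783) and -0.22 (adjusted p = 0.432).

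Sgk1 (chromosome 10, 21882184 to 21999903) encodes a serum- and glucocorticoid-regulated kinase that controls ion channels and cell survival. It was at 132, 120, 137 and 109 CPM in temporal saline dura, at 93.4 to 209 CPM (median 128 CPM) in unsited saline dura and at 55.8 to 191 CPM (median 122 CPM) after collagenase. The groups overlapped throughout, with collagenase libraries 1 and 7 lowest again. The log2 fold change was 0.07 ± 0.26 (adjusted p = 0.867, interval -0.44 to 0.57) and -0.04 ± 0.22 (adjusted p = 0.891, interval -0.48 to 0.39). It was 0.27 (adjusted p = 0.386) and 0.17 (adjusted p = 0.523) without the 5 libraries.

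Between the dura control groups, 0 of the 8 genes were called (2 at an unadjusted p under 0.05), beside 2.24% of all genes higher and 2.01% lower in unsited saline. That background was 696 genes and varied with the fit, from 1.28% to 6.37% of genes called when 1 library was left out, while 4659 of 15828 were called with no other group fitted. The 2 at an unadjusted p under 0.05 were Tsc22d3 (log2 1.11 ± 0.32, adjusted p = 0.0513) and Errfi1 (0.80 ± 0.29, adjusted p = 0.111). They ranked 713 and 1565 of 16363 genes by p. DESeq2 called Tsc22d3 (adjusted p = 0.00872), beside 5.37% of genes higher and 4.31% lower. Without the 5 collagenase libraries that stood apart, which enter the shared estimate of spread, both were called (adjusted p = 0.00291 and 0.0309), beside 11.4% of genes higher and 11.5% lower. The control libraries differ in their labels, their titles, their cell type markers and their sex-linked genes. The muscle marker sum was 110 to 280 CPM in temporal saline dura and 6.58 to 10.6 CPM in unsited saline dura, that of 5 B cell markers 66.2 to 78.3 and 27.4 to 50.0 CPM, that of 5 neutrophil markers 682 to 2130 and 243 to 683 CPM, and that of the dura and fibroblast markers 8560 to 10800 and 12000 to 26600 CPM. Called between the controls were 1 of 9 muscle, 1 of 5 B cell, 0 of 5 neutrophil and 0 of 7 dura markers. When the 5 libraries were left out, 9 muscle, 4 B cell and 5 neutrophil markers were lower and 6 dura markers higher in unsited saline. Xist, expressed from the inactive X chromosome, was at most 0.362 CPM in the temporal saline libraries, and at 584 to 726 CPM in 3 of the 6 other controls and at 1.15 to 3.29 CPM in the other 3. The part of these differences in the result was not tested.

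**Figure D2:**
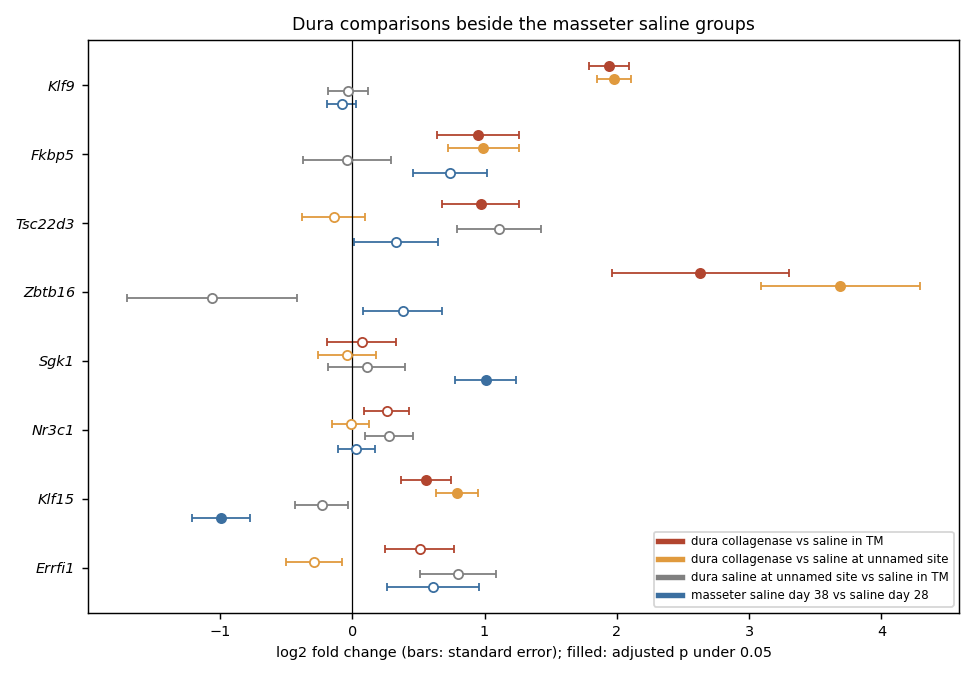
Log2 fold changes of the 8 genes (horizontal axis, bars are standard errors) in the dura comparisons and, for scale, between the masseter saline groups, which differ in read layout, day and Xist. Filled points passed an adjusted p of 0.05. Klf9 lay at 1.94 and 1.98 in the collagenase comparisons and near 0 in the others, while Sgk1 and Klf15 moved apart between the masseter saline groups.

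A wider list of 30 genes that glucocorticoids induce had 11 called higher and 1 lower against temporal saline, and 11 higher and 3 lower against unsited saline. It includes members of the 8, so its counts are not separate from theirs. The shares of all genes called higher were 13.3% and 21.4%, and those called lower 11.1% and 15.3%. Its median log2 fold change was 0.38 and 0.23. Cebpb, a transcription factor of acute responses, rose by log2 2.54 ± 0.34 against temporal saline (adjusted p = 1.41e-05), but was also higher in the other control group, by 1.71 ± 0.34 (adjusted p = 0.0069). Pik3r1, a regulatory subunit of PI3-kinase, rose by 0.78 ± 0.15 (adjusted p = 0.000692), and Fbxo32, a ubiquitin ligase of muscle breakdown, by 1.30 ± 0.36 (adjusted p = 0.0109). Collagenase libraries 4, 7 and 8 had muscle marker sums of 61300, 7600 and 22900 CPM, and their part in the rise of Fbxo32 was not tested. Lcn2, an iron-trapping protein of neutrophils and inflamed tissue, fell by 2.19 on the log2 scale (adjusted p = 0.00298). In the same comparison 4 of 5 neutrophil and 5 of 5 B cell markers were lower, with medians of -1.81 and -1.93, and their part in the falls of Lcn2 and Il1b was not tested. Against unsited saline, the insulin receptor substrate gene Irs2 rose by 3.22 ± 0.52 (adjusted p = 0.000116), and Foxo3, a transcription factor restrained by insulin signalling, by 0.79 ± 0.16 (adjusted p = 0.000864). Between the control groups 2 genes were called higher and 1 lower. Without the 5 libraries that stood apart, 12 were called higher against temporal saline with 1 lower, 8 against unsited saline with 2 lower, and 7 between controls with 3 lower, where 15.7%, 20% and 11.4% of all genes were called higher. Of 11 tested genes that glucocorticoids lower, 0 were called higher and 1 lower against temporal saline, beside 13.3% and 11.1% of all genes. The 1 was the cytokine gene Il1b, which fell by 1.15 on the log2 scale (adjusted p = 0.0465). Against unsited saline 1 was higher and 1 lower, beside 21.4% and 15.3% of all genes. These were the chemokine gene Cxcl1 (1.05 ± 0.33, adjusted p = 0.0194) and the matrix protease gene Mmp9 (-1.06 ± 0.37, adjusted p = 0.0298). The counts without the 5 libraries were 1 higher with 2 lower, and 2 higher with 1 lower. The shares of all genes were then 15.7% and 20% higher and 16.1% and 18.8% lower.

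Other Krüppel-like factors, the zinc finger family of Klf9 and Klf15, numbered 13 tested. The comparison with temporal saline called 3 higher with 0 lower, and that with unsited saline 3 higher with 1 lower. The shares of all genes were 13.3% and 21.4% higher and 11.1% and 15.3% lower. Leaving the 5 libraries out gave 4 higher with 1 lower, and 5 higher with 1 lower, beside 15.7% and 20% of all genes higher and 16.1% and 18.8% lower. Klf7, a factor known from neurons, had log2 fold changes of 3.80 ± 0.32 and 3.96 ± 0.27 (adjusted p = 3.05e-08 and 5.83e-10), larger values than those of Klf9. It was at 4.73 to 16.1 CPM after collagenase and at 0.465 to 0.869 CPM in the controls. Klf13 rose by 0.68 ± 0.15 and 0.56 ± 0.13 (adjusted p = 0.00216 and 0.00219).

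Circadian clock genes, some of which carry glucocorticoid response elements, were called in part in each dura comparison. Of 14 genes, 5 were called higher and 1 lower after collagenase than in temporal saline dura, and 4 higher and 3 lower than in unsited saline dura. The shares of all genes were 13.3% and 21.4% higher and 11.1% and 15.3% lower. Between the control groups, 4 were higher and 1 was lower in unsited saline, beside 2.24% and 2.01% of all genes. Leaving out the 5 libraries, the collagenase counts were 5 higher with 1 lower, and 4 higher with 5 lower, and those between controls 6 higher with 2 lower. The shares of all genes were then 15.7%, 20% and 11.4% higher and 16.1%, 18.8% and 11.5% lower. Cry1, a repressor of the clock, rose in both collagenase comparisons (log2 1.08 ± 0.21 and 1.29 ± 0.18; adjusted p = 0.0008 and 2.37e-05). Per2, another repressor, was at 7.46 to 14.9 CPM in temporal saline dura, 19.7 to 41.1 CPM in unsited saline dura and 14.4 to 56.4 CPM after collagenase. It differed between the control groups by log2 1.44 ± 0.29 (adjusted p = 0.00805), with the higher values where those of Tsc22d3 and Errfi1 were higher. The part of the clock genes in the differences of the 8 genes was not tested.

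Among the collagenase libraries, 6 had Xist between 531 and 622 CPM and 6 had at most 0.841 CPM. The collagenase effect against unsited saline did not pass the test of a difference between libraries with and without Xist for any of the 8 genes, and 0% of 16340 genes were called in either direction (edgeR, 0 of the 8 at an unadjusted p under 0.05). The intervals were wide: that of Klf9 was -0.57 to 0.24 on the log2 scale, and that of Zbtb16 -1 to 2.86.

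In masseter, the saline groups at day 38 and day 28, which differ in day, read layout and Xist (at most 0.34 CPM and 283 to 332 CPM), gave 1 of the 8 genes higher and 1 lower at day 38, beside 11.7% and 12.9% of 14652 genes. Sgk1 was at 130, 136, 117 and 159 CPM at day 28 and at 172, 221, 305 and 396 CPM at day 38, without overlap (log2 1.01 ± 0.23, adjusted p = 0.00715), although limma on TPM did not call it (0.75, adjusted p = 0.105). Klf15 was at 72.3, 85.0, 74.3 and 71.6 CPM at day 28 and at 38.7, 45.1, 32.9 and 36.0 CPM at day 38, again without overlap but in the opposite direction (-0.99 ± 0.22, adjusted p = 0.00633). Klf9 was at 209 to 221 CPM and 178 to 228 CPM (-0.08 ± 0.11, adjusted p = 0.607, interval -0.30 to 0.13). Any masseter comparison across days or layouts includes differences of this kind.

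After collagenase in the masseter at day 38, 0 of the 8 genes were called against saline at day 38 (2 at an unadjusted p under 0.05; 0.334% of genes higher and 0.532% lower). Fkbp5 was at 65.1, 65.1 and 74.2 CPM against 97.9, 128, 115 and 139 CPM after saline, without overlap (log2 -0.82 ± 0.31, adjusted p = 0.188). Zbtb16 was at 70.8, 53.0 and 35.8 CPM against 121, 81.0, 72.7 and 125 CPM, also without overlap (-0.91 ± 0.33, adjusted p = 0.179). Neither passed the test, and the intervals, -1.42 to -0.21 and -1.56 to -0.25, were wide. These 2 genes, those at an unadjusted p under 0.05, ranked 1428 and 1327 of 14652 genes by p. Klf15 differed without overlap in the opposite direction, at 46.8 to 54.2 CPM against 32.9 to 45.1 CPM (0.39 ± 0.24, adjusted p = 0.416). The share of all genes without overlap was not counted.

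At day 52 only Klf15 was called against saline at day 38, 1 of 8 higher and 0 lower, beside 0.287% and 0.471% of genes. It was at 133, 68.2 and 47.2 CPM, each above the highest saline library at 45.1 CPM (log2 1.11 ± 0.24, adjusted p = 0.0477). The call was lost without day 52 library 1 (log2 0.59, adjusted p = 0.0767), without library 2 (adjusted p = 0.0736) and whenever 1 of the 4 saline day 38 libraries was left out (adjusted p = 0.069 to 0.134). Library 1 of day 52, the shallowest of all at 12.1 M counts, held the highest value of that group for 7 of the 8 genes, among them Zbtb16 at 219 CPM (others 88.3 and 148 CPM), Errfi1 at 202 CPM (67.3 and 79.5 CPM), Nr3c1 at 238 CPM (153 and 164 CPM) and Klf9 at 309 CPM (275 and 235 CPM). Sgk1 was the exception, at 131 CPM beside 114 and 183 CPM. The share of all genes that were highest in library 1 was not counted. Between day 52 and day 38 after collagenase in the masseter, 0 of the 8 were called by edgeR, beside 0.0751% of genes higher and 0.0205% lower. An unadjusted p under 0.05 was given to 6 of the 8, but also to many other genes. The largest of the 6, that of Errfi1 (edgeR p = 0.0357), ranked 2254 of 14652 genes. The median log2 fold change of the 8 was 0.65, against 0.00 for all genes. Klf9 (0.57 ± 0.13, adjusted p = 0.0571) and Zbtb16 (1.51 ± 0.36, adjusted p = 0.0587) were nearest to the threshold, and DESeq2 called both (adjusted p = 0.00208 and 0.00186), beside 3.67% of genes higher and 1.67% lower. Day 52 had no saline group, so time and treatment cannot be told apart.

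**Figure D3:**
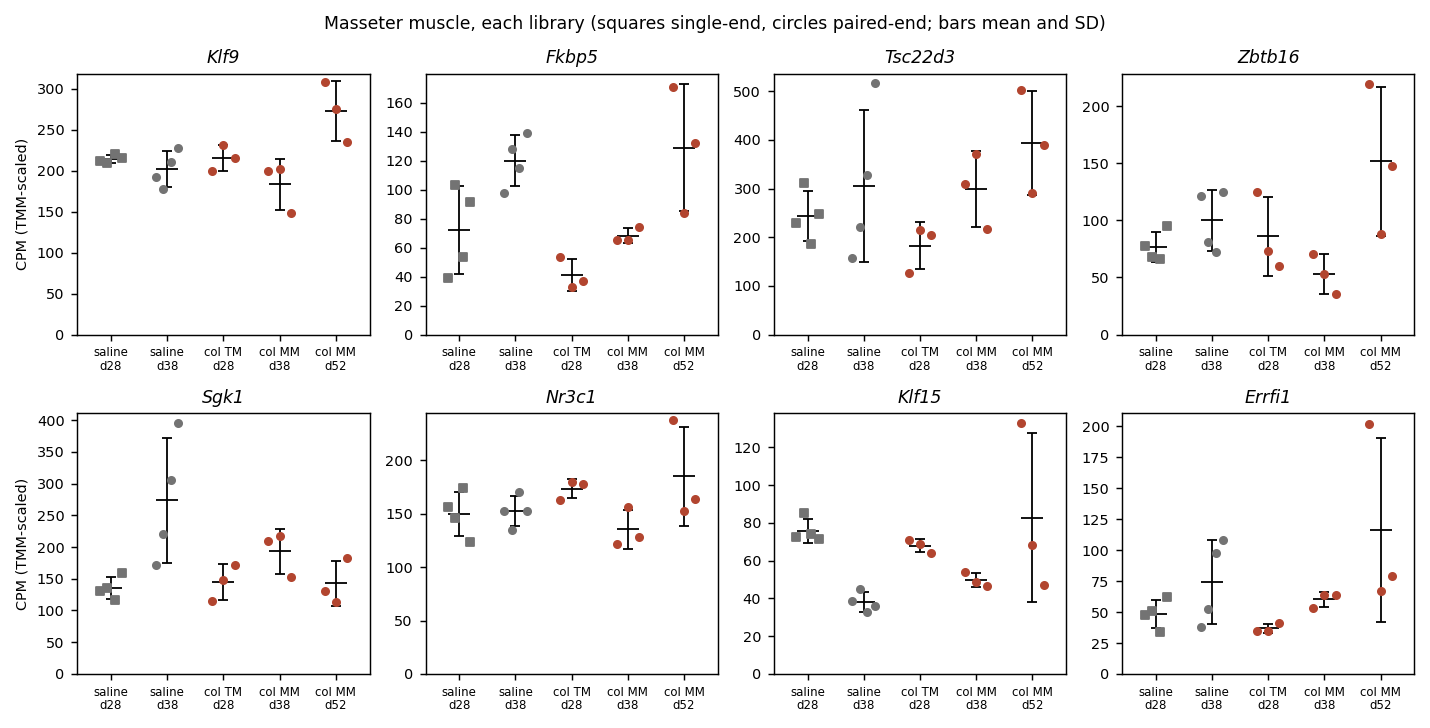
Levels of the 8 genes in each masseter library, in CPM on a linear axis from 0, for saline at day 28 and day 38 and for collagenase in the temporal muscle (TM) or masseter (MM); points are libraries, and the lines give the mean and SD. A single day 52 library was the highest of its group for 7 of the 8 genes, including Zbtb16 at 219 CPM and Errfi1 at 202 CPM. The share of all genes that were highest in it was not counted.

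In masseter after collagenase in the temporal muscle, 0 of the 8 genes were called against saline at day 28, beside 1.17% of genes higher and 1.77% lower. That saline group shares the day and the presence of Xist but not the layout. An unadjusted p under 0.05 was given to 1, Fkbp5, which ranked 1866 of 14652 genes by p. Against saline at day 38, 1 was higher and 2 lower, beside 5.12% and 5.79% of genes. The sum of 5 neutrophil markers was 62.5 to 543 CPM in this group, 2.82 to 30.2 CPM in saline day 28 and 2.45 to 4.81 CPM in saline day 38, with 1 and 5 of the 5 called higher, and its part in these results was not tested. Fkbp5 was at 53.7, 32.7 and 36.9 CPM. It was below every saline day 38 library (-1.55 ± 0.32, adjusted p = 0.00746) and, in 2 of 3 libraries, below every saline day 28 library, which were at 39.3, 103, 53.3 and 91.7 CPM (-0.81 ± 0.31, adjusted p = 0.157). Sgk1 (-0.92 ± 0.26, adjusted p = 0.035) and Klf15 (0.83 ± 0.24, adjusted p = 0.0377) were called against day 38 only, and their differences from saline day 28 were 0.10 ± 0.25 (interval -0.39 to 0.59) and -0.16 ± 0.24 (interval -0.63 to 0.31). The Klf15 libraries, at 71.2, 68.6 and 64.1 CPM, were all below the lowest saline day 28 library at 71.6 CPM. Both calls were lost whenever 1 of the 3 collagenase libraries was left out (adjusted p = 0.0525 to 0.135 for Sgk1 and 0.0746 to 0.112 for Klf15) or saline library 3 or 4 was (0.0855 and 0.0893; 0.103 and 0.0802), and that of Klf15 also without saline library 1 (0.0704). Against collagenase in the masseter at day 38, 0 of the 8 were called (2 at an unadjusted p under 0.05), beside 6.7% of genes higher and 5.04% lower. The 2 were Fkbp5 and Nr3c1, which ranked 3655 and 3730 of 14652 genes by p.

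Between tissues, compared over single-end saline libraries alone, 7 of the 8 genes were called higher and 1 lower in masseter at day 28 than in the 10 dura controls, beside 39.9% and 42.1% of 16156 genes. The groups also differ in day (28 and 2) and in Xist, which was at 283 to 332 CPM in masseter. Only 3 dura controls, all unsited saline, had Xist above 50 CPM. The part of day and sex-linked genes was not tested. Klf9 was at 115 to 131 TPM in masseter and 16.1 to 29.4 TPM in dura, Klf15 at 56.2 to 76.2 TPM and 11.6 to 20.4 TPM, and Zbtb16 at 23.4 to 36.0 TPM and 0.26 to 2.33 TPM, none with overlap. On scaled counts the log2 fold changes were 3.48 ± 0.12, 2.97 ± 0.10 and 5.87 ± 0.34, and on log2(TPM + 0.5) they were 2.50, 1.98 and 4.36. The scaling matters here: with TPM in place of scaled counts the median of all genes moved by more than 0.1, to -0.90, and calls went from 6450 higher and 6796 lower to 2899 higher (17.9%) and 10994 lower (68%). Nr3c1 went from 1.32 to 0.35 (limma, adjusted p = 0.00716). Tsc22d3 was 0.45 ± 0.14 higher on scaled counts and turned to -0.51 on TPM (limma, adjusted p = 0.0126), and Fkbp5 (0.43, adjusted p = 0.22) and Sgk1 (0.02, adjusted p = 0.938) lost their calls. Errfi1 was lower in masseter on both scales.

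Ordered by mean TPM over the 8 groups, Klf9 ran from 148 ± 12.9 TPM (SD, n = 3) in masseter at day 52 to 21.2 ± 2.41 TPM (n = 6) in unsited saline dura. Dura after collagenase, at 80.4 ± 12.4 TPM (n = 12), stood next to masseter after collagenase at day 38, at 80.9 ± 24.2 TPM (n = 3), and those neighbours overlapped. Neighbours in the order failed to overlap at 2 steps: from masseter at day 52 to masseter saline at day 28 (125 ± 7.01 TPM, n = 4), and from dura after collagenase to temporal saline dura (22.5 ± 5.49 TPM, n = 4). Zbtb16 in dura after collagenase, at 7.79 ± 5.10 TPM, remained below every saline masseter library, the lowest of which was at 22.1 TPM. Tsc22d3 was highest in dura, at 477 ± 54.7 TPM in unsited saline dura, and lowest in masseter after collagenase in the temporal muscle, at 165 ± 64.0 TPM. Nr3c1 had group means from 29.2 to 49.4 TPM, and neighbouring groups overlapped at every step.

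Libraries of a group varied in the 8 genes, and most pairs of the 8 moved in the same direction. After subtracting group means from log2(CPM + 1), 26 of the 28 pairs in dura (22 libraries) and 25 of the 28 in masseter (17 libraries) had a positive Pearson correlation, with medians of 0.38 and 0.35. Over all pairs of genes averaging at least 5 CPM, 50.0% and 50.2% were positive, with medians of 0.00. Without dura libraries 1, 4, 6, 7 and 8, a choice made after seeing the data, 22 of the 28 pairs were positive, with a median of 0.37. These are descriptions over libraries that share depth, scaling and tissue makeup. In dura, Tsc22d3 went with Errfi1 (0.76) and Sgk1 (0.72), and Fkbp5 with Zbtb16 (0.71), whereas Zbtb16 and Nr3c1 gave -0.22. These became 0.72, 0.39, 0.80 and -0.50 without the 5 libraries, so that of Tsc22d3 with Sgk1 depended on them; libraries 1 and 7 were low for Tsc22d3, Sgk1 and Nr3c1. In masseter the closest pairs again were Tsc22d3 with Sgk1 (0.85) and with Errfi1 (0.75). The saline day 38 libraries show this: library 1 was lowest and library 4 highest for Tsc22d3 (158 and 516 CPM), for Sgk1 (172 and 396 CPM) and for Errfi1 (38.2 and 108 CPM).

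**Figure D4:**
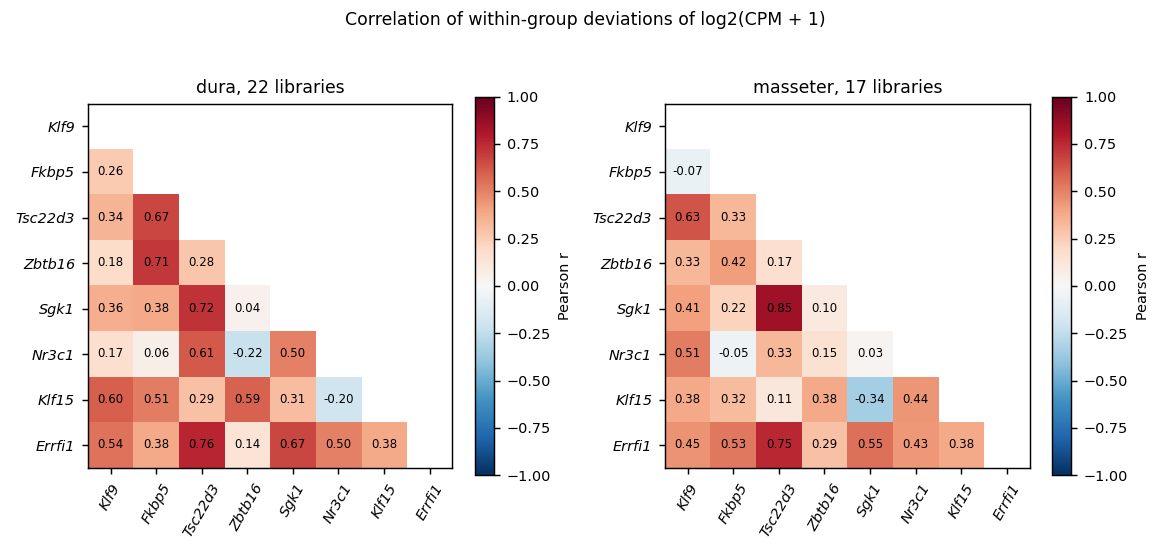
Pearson correlation of within-group deviations of log2(CPM + 1) for each pair of the 8 genes, in dura (22 libraries, left) and masseter (17 libraries, right); red is positive and blue negative. Tsc22d3, Sgk1 and Errfi1 are among the closest pairs in both tissues, with 0.76 and 0.85 the highest values over all libraries.

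Among all other genes averaging at least 5 CPM, those whose within-group pattern was most like each member were also listed, 3 per member and tissue. Tsc22d3 was nearest to the sulfotransferase gene Sult1a1 in dura (r = 0.94) and to the clock gene Per1 in masseter (0.91). Errfi1 was nearest to Cebpd, a transcription factor of acute responses, in dura (0.93) and to the metallothionein gene Mt2 in masseter (0.89). Klf9 was nearest in dura to Angptl4, an inhibitor of lipoprotein lipase (0.75), and Klf15 in masseter to Irs2 (0.92). Klf15 in dura had Per2 among its nearest 3 (0.73), and Sgk1 in masseter had the mitochondrial carrier gene Slc25a25 (0.90) and Cebpb (0.87). Nr3c1 was nearest in dura to the mesenchymal transcription factor gene Prrx1 (0.96). The other nearest genes in dura were Mmp28 for Fkbp5 (0.76), Ap4m1 for Zbtb16 (0.88), Tuft1 for Sgk1 (0.90) and Lama1 for Klf15 (0.78). In masseter they were Vipr1 for Fkbp5 (0.86), Dpp8 for Zbtb16 (0.81), Atf1 for Klf9 (0.90) and Eif2s3x for Nr3c1 (0.91). Per2 ranked 3 for Klf15 and Cebpb ranked 2 for Sgk1. Each other gene named is the highest of 12222 genes in dura or 10169 in masseter. The other genes that ranked 2 or 3 are not named. The dura values include the 5 libraries that stood apart.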

How the data were processed

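Expected counts, TPM and gene lengths were the deposited RSEM values of 39 libraries, per the file headers: the authors' expected counts are unscaled estimates per gene, and their TPM values are per length within a library. The authors' FPKM values, deposited beside them, were not used. The tools named in the submitters' processing notes are RSEM, Trim Galore and bcl2fastq, with build mm10; aligner, versions and strandedness of counting are not given in the sources used. Read layout was read from deposited length minus effective length, above or below 60 bases over genes with more than 50 counts: 14 libraries single-end, 25 paired-end. Expected counts were rounded. Each tissue was fitted with all its groups in edgeR 4.0.16 (R 4.3.3): filterByExpr, TMM, quasi-likelihood test, Benjamini-Hochberg adjustment over all genes tested, threshold 0.05. Standard errors were derived from the F statistic and, with a normal quantile, give the approximate 95% intervals. These are narrower than intervals matched to the test would be. Levels are CPM on TMM-scaled sizes. DESeq2 1.42.0, limma 3.58.1 with trend on log2(TPM + 0.5), RLE factors, no filter, an effective-length offset, fits of the compared groups alone, fits without each library, without collagenase libraries 1, 4, 6, 7 and 8, with Xist (above or below 50 CPM) as covariate, and with replicate blocks were alternatives. The steps were tested on simulated data. The 108 pairs of libraries within groups differed by more than sampling noise (chi-square per gene 15.6 to 592).

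The 8 genes and all lists were chosen with earlier results of these data known. Besides them, up to 4 genes of each list with the smallest p per comparison, the 3 genes most like each member, and marks of libraries that stood apart could be named; Malat1 was added after its values were seen. Temporal and unsited saline are the labels "Saline in TM" and "Saline". Start regions come from RefSeq on GRCm38.p6; those of chromosome 18 were not used.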

Additional observations from a re-analysis of the deposited data

How the results depend on the processing

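Over 1560 alternative values of single genes, 1490 kept their side of the threshold, of which 46, called in neither fit, changed sign, 47 were no longer called, 22 became called and 1 reversed: Tsc22d3 in masseter against dura, -0.51 on TPM. Of 195 alternative counts of members called, 165 stayed within 1.5 times of the reported count. Against saline in the temporal muscle, 2 of the 8 dura genes were called in a fit of the compared groups alone, 3 with Xist as covariate, and 2 to 5 without a single library. Between the dura controls, 1 was called with RLE factors, 1 by DESeq2, 2 in the fit of those groups alone, 2 without collagenase libraries 1, 4, 6, 7 and 8, and 0 to 1 without a single library. For masseter at day 52 against saline at day 38, DESeq2 called 3, and no filter, limma on TPM and the groups alone called 0 each; leaving out a library gave 0 to 1. Between day 52 and day 38, DESeq2 called 2, beside 3.67% of genes higher and 1.67% lower, and limma on TPM 5. Where the share of all genes called in the same fit is not given, these counts show only how the calls vary with the fit. After collagenase in the temporal muscle, leaving out a library gave 1 to 3 against saline at day 38, and the groups alone gave 2 against collagenase in the masseter at day 38. Between the masseter saline groups, limma on TPM called 1. Deviations of same-numbered libraries had correlations from -0.204 to 0.15 in dura and from -0.27 to 0.233 in masseter. With 4 numbers per group, this check cannot exclude pairing, and the main fits did not treat the numbers as pairs. With a replicate block over the shared numbers, 0 were called in dura against saline in the temporal muscle. Between the masseter saline groups 1 was called. These fits used fewer libraries. Except as given above, the causes were not tested. Depth was lowest, at 12.1 M counts, in day 52 library 1, on which the Klf15 value at day 52 depends.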

Other observations

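Dixon's criterion for a value far from the rest of its group was applied to each gene in each saline group of 4 to 6 libraries. Of these 32 sets 0 passed, where chance alone passes about 1 in 20. The collagenase groups, of 3 or 12 libraries, were not examined.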
